A study of Mus musculus with 14 samples.

Results

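The human tau construct and the endogenous mouse tau gene Mapt were followed through 14 RNA sequencing libraries of mouse brainstem. These are 2 of the 55422 entries of the deposited count table: the entry hTauP364S, which holds the reads assigned to the construct, and the gene annotated as Mapt (ENSMUSG00000018411.17). Both were chosen by name, not by a measured value, though with earlier results of these data known. All 7 mice carried Th-Cre, which places Cre recombinase under the promoter of tyrosine hydroxylase, and Slc6a2-eGFP/Rpl10a, which tags ribosomal protein L10a with green fluorescent protein under control of the noradrenaline transporter gene. At 2 to 3 months of age, human tau with the P364S substitution was infused into the locus coeruleus of 4 mice (animals B, C, L and M), and EYFP, a fluorescent control protein, into that of 3 mice (H, I and K). From each mouse a total homogenate (pre-IP) and an immunoprecipitate (IP) of the tagged ribosomes were sequenced, which gave 4 tau pre-IP, 4 tau IP, 3 EYFP pre-IP and 3 EYFP IP libraries. The animals of a group are separate mice, and both fractions of a mouse share its letter. The time between infusion and collection, and the means by which the construct was delivered, are not given in the sources used here. The transgene tags ribosomes by the activity of the Slc6a2 promoter and expression of Cre follows that of Th, so cells other than locus coeruleus neurons with either promoter active belong to the model as well.

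Tau is a microtubule-associated protein that is abundant in axons. Its microtubule-binding region is built of imperfect repeats, each of which ends in a short stretch of a proline and 3 glycines, and alternative splicing sets how many repeats a tau molecule has. Substitutions in this region occur in inherited frontotemporal dementia, and the locus coeruleus, the noradrenergic nucleus of the brainstem, is among the first sites where abnormally phosphorylated tau appears in Alzheimer's disease.

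P364S names a proline-to-serine change in the last of these stretches of human tau. The sequence of the construct itself was not used here. To show which part of tau the substitution concerns, the corresponding codons of mouse Mapt were read from GENCODE M21 transcript Mapt-201 (GRCm38, plus strand), whose coding sequence of 430 residues holds 4 such stretches, with their prolines at residues 259, 290, 321 and 353. Each line gives 30 bases of coding sequence, 5′ to 3′, with the proline codon in capitals.
repeat 1, residue 259: ctgaagcaccagCCAggaggtggcaaggtg
repeat 2, residue 290: atcaaacacgtcCCGggtggaggcagtgtg
repeat 3, residue 321: atccatcacaagCCAggaggtggccaggtg
repeat 4, residue 353: atcacccacgtcCCTggaggagggaataag
The last of these lies whole within exon 11 of the transcript, at chr11:104322508-104322537, whereas the other 3 cross an exon junction. The mouse proline codon thus differs between the repeats, with CCA in repeats 1 and 3, CCG in repeat 2 and CCT in repeat 4. Of the 8 Mapt transcripts of that release with a coding sequence, 5 hold all 4 stretches and the other 3, of 84, 123 and 154 residues, hold 0. Human and mouse tau are alike in sequence over this region, and how reads that match both were assigned is not given in the sources used here.

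Total counts ran from 41843489 to 65664551 per library, and levels are given as CPM, counts per 1000000 counts of the library. The limit that a count of 0 allows, 3 counts, corresponded to between 0.0457 and 0.0717 CPM. Intervals below are exact 95% binomial intervals and cover counting error only, since the reads carry no molecular identifiers. Among entries with fewer than 10 counts in a library, from 74.3% to 78.8% of the nonzero counts were even, and whether both mates of a read pair were counted is not given in the sources used here. If they were, these intervals are too narrow. RNA integrity numbers were 7.7 to 9 apart from the IP library of animal I, at 4.2. Animal M is labelled female, and its libraries held 674 (pre-IP) and 1153 (IP) counts over 4 Y-linked genes, against 0 to 4 in the libraries of the other animals labelled female. Xist, which is transcribed from the inactive X chromosome, had 0 counts in the pre-IP and 21 in the IP library of animal M, 0 in every library labelled male and 16 to 120 in the others labelled female. The locus coeruleus markers were present: Dbh, which makes noradrenaline from dopamine, had 8.31 to 26.5 CPM in the pre-IP libraries.

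The construct was read at high levels in every library labelled tau. In the tau pre-IP libraries it had 128 CPM in animal B, 67.8 CPM in C, 87.8 CPM in L and 183 CPM in M (mean 116.7 ± 50.9, SD, n = 4), from 3527 to 11358 counts. Animal M was highest and animal C lowest, 2.70-fold apart. In the tau IP libraries the construct had 839.6 CPM in animal B, 368 CPM in C, 137 CPM in L and 194 CPM in M (mean 385 ± 319, SD, n = 4), from 6943 to 47177 counts. Animal B stood far above the others here, and the order of the animals was not that of the homogenates: C, the lowest in pre-IP, was next to the highest in IP, and M, the highest in pre-IP, was next to the lowest. Set against all entries of its library, the construct ranked 171st in the IP of animal B, 504th in C, 1591st in L and 1068th in M, and between 1137th and 3359th in the tau pre-IP libraries.

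The libraries labelled EYFP measure the background of the construct, and they were not alike. Animal H had 8 counts in pre-IP (0.191 CPM, 95% interval 0.0825 to 0.377) and 16 in IP (0.244 CPM, 0.139 to 0.396). Animal I had 2 counts in pre-IP (0.0401 CPM, 0.00486 to 0.145) and 18 in IP (0.373 CPM, 0.221 to 0.589). Animal K had 408 counts in pre-IP (7.44 CPM, 6.74 to 8.20) and 398 in IP (6.55 CPM, 5.93 to 7.23). Both K libraries thus stood above those of H and I, by 38.9 times the higher of these in pre-IP and 17.6 times in IP, while the lowest tau library was still 9.11 times K in pre-IP and 20.9 times K in IP. The labels number the libraries, those of B, C, H and I from 2 to 11 and those of K, L and M from 17 to 26. Animal K contributed 2.43% of the construct counts of the pre-IP libraries numbered from 17 and 2.27% of the IP ones. H and I together contributed 0.104% and 0.0528% of those numbered up to 11. The source of the K counts was not tested. For the edgeR fits of tau against EYFP and of the interaction, the construct and Mapt are also given without animal K. The same holds for Mapt in the fit of the EYFP animals.

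**Figure D1:**
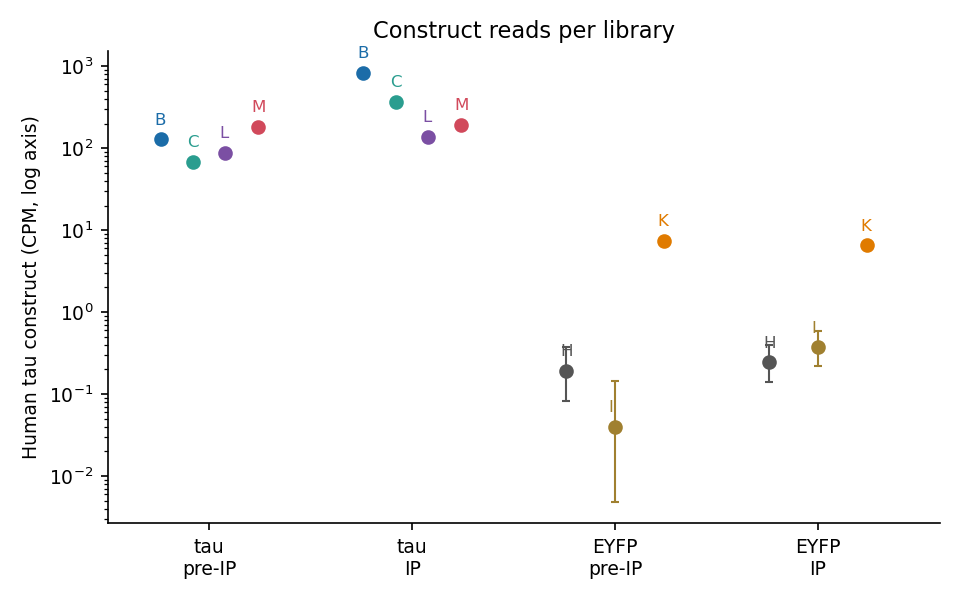
Human tau construct in CPM (log axis) for each library, by treatment and fraction. Letters name the animal and bars are exact 95% binomial intervals of the count, smaller than the point for most libraries. All 8 tau libraries lie between 67.8 and 839.6 CPM, the 2 libraries of EYFP animal K at 7.44 and 6.55 CPM, and the libraries of EYFP animals H and I between 0.0401 and 0.373 CPM.

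Mapt was among the more abundant transcripts of all libraries and varied far less. In the tau pre-IP libraries it had 324 CPM in animal B, 349 CPM in C, 268 CPM in L and 325 CPM in M (mean 316 ± 34.2, SD, n = 4). In the tau IP libraries it had 254 CPM in animal B, 434 CPM in C, 293 CPM in L and 308 CPM in M (mean 322 ± 78.0, SD, n = 4). Animal C had the highest and animal B the lowest Mapt level of the tau IP libraries, although B had the highest level of the construct.
The EYFP pre-IP libraries had 269.6 CPM in animal H, 235 CPM in I and 310.03 CPM in K (mean 271 ± 37.7, SD, n = 3). The EYFP IP libraries had 371 CPM in animal H, 365 CPM in I and 339.9 CPM in K (mean 359 ± 16.4, SD, n = 3). In order of their means the groups were EYFP IP, tau IP, tau pre-IP and EYFP pre-IP, and each of these overlapped its neighbour in that order. EYFP IP and EYFP pre-IP did not overlap. Mapt ranked between 410th and 864th of all entries in every library.

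**Figure D2:**
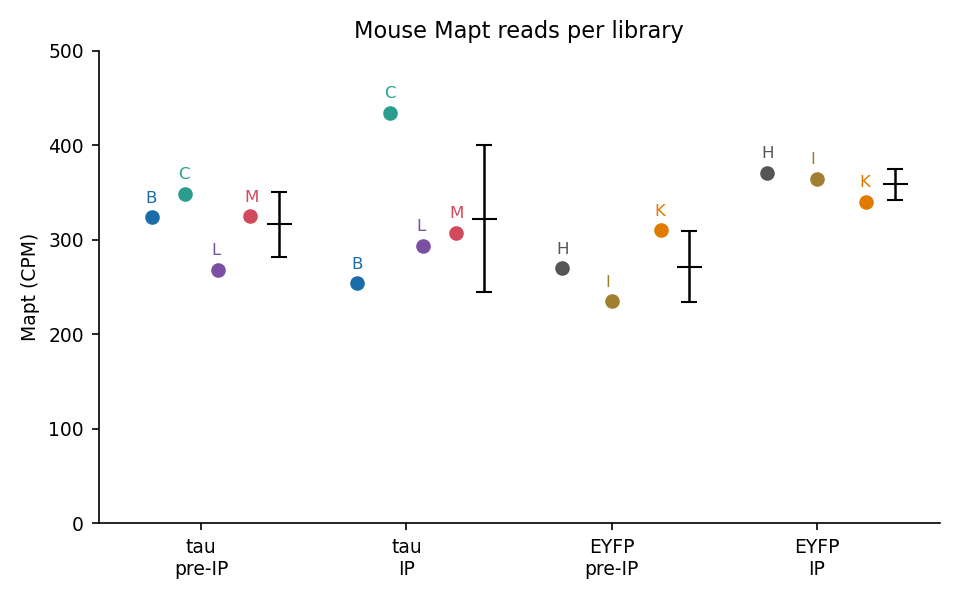
Mouse Mapt in CPM (axis from 0) for each library, by treatment and fraction; letters name the animal and the black bars give the mean ± SD of the group. Mapt runs from 235 to 434 CPM over the 14 libraries, and the tau IP libraries span more of this range (254 to 434 CPM) than the EYFP IP libraries (339.9 to 371 CPM).

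The first comparison asked whether the libraries labelled tau carry the construct and whether infusion of human tau went with another level of the endogenous gene. In IP, the construct was higher in each of the 4 tau libraries than in each of the 3 EYFP libraries, with a log2 fold change of 7.45 (SE 1.36). Mapt differed by -0.05 (SE 0.17), and its groups overlapped. In pre-IP, the construct was again higher in 4 of 4 tau libraries, with a log2 fold change of 5.44 (SE 1.06), and Mapt differed by 0.23 (SE 0.14).
None of these passed edgeR's quasi-likelihood test across all genes: the adjusted p was 0.318 for the construct and 0.924 for Mapt in IP, and 1.0 for both in pre-IP. In both fits 0 genes passed (0% of 19472 genes in IP and 0% of 19197 in pre-IP). An unadjusted p under 0.05 was reached by 2336 genes in IP and 545 in pre-IP, DESeq2 called 347 genes in IP and 0 in pre-IP, and edgeR with no filter on low counts called 113 and 44.
The construct had the smallest p of the pre-IP fit and the 10th smallest of the IP fit. In IP it passed with DESeq2 (adjusted p = 1.30e-05) and with no filter (edgeR adjusted p = 0.00136), and in pre-IP with no filter (edgeR adjusted p = 4.09e-15) but not with DESeq2 (adjusted p = 0.953). With animal K left out, the log2 fold change rose to 10.45 in IP (edgeR adjusted p = 0.288) and to 10.09 in pre-IP (edgeR adjusted p = 9.29e-05), and the construct was then the 1 gene called in pre-IP. With animal M left out it passed in IP (7.68, edgeR adjusted p = 0.0491).
A two-sided exact permutation test on the log2 CPM of the construct alone, added after the data were seen, gave p = 0.0286 in each fraction, the smallest its 35 splits of the animals can give.

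Within the libraries numbered up to 11, the tau IP libraries had 839.6 and 368 CPM of the construct against 0.244 and 0.373 CPM in EYFP, and within those numbered from 17 they had 137 and 194 CPM against 6.55 CPM. With the number range as a covariate the log2 fold change of the construct was 7.71 in IP (edgeR adjusted p = 0.199) and 5.96 in pre-IP (edgeR adjusted p = 0.328). That of Mapt was -0.03 in IP and 0.23 in pre-IP. What the library numbers stand for is not given in the sources used here.

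The second comparison asked how far the immunoprecipitate, made to hold RNA on the ribosomes of noradrenergic cells, was richer in tau RNA than the homogenate of the same animals. In tau animals the construct rose by 1.82 (log2; SE 0.57, edgeR adjusted p = 0.0442), whereas Mapt differed by 0.08 (SE 0.16, edgeR adjusted p = 0.768). This fit called 3916 of 18949 genes (20.7%), so a call was common among all genes. With the animal as a block the construct's rise was 1.53 (SE 0.48) and no longer passed (edgeR adjusted p = 0.0544). It also did not pass without animal B (1.03, edgeR adjusted p = 0.129), C (1.67, 0.171) or L (1.98, 0.0881), and it passed without M (2.39, 0.0373). Without C or without L, 0 genes passed in this fit, although 4970 and 5025 had an unadjusted p under 0.05. DESeq2, with all animals, called 5328 genes.

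Animal by animal, the rise of the construct was uneven. Its CPM in IP was 6.55 times that in pre-IP in animal B, 5.42 times in C, 1.56 times in L and 1.06 times in M. All 4 values were above 1, and the pair with library numbers up to 11 stood apart from the pair with numbers from 17. The mean log2 change was 1.47 ± 1.30 (SD, n = 4), and in a two-sided exact permutation test 2 of the 16 sign flips were as large, the fewest that 4 animals allow, so the test could not pass 0.05.
For Mapt, the IP level was 0.784 times the pre-IP level in animal B, 1.25 times in C, 1.10 times in L and 0.947 times in M. It was thus higher in 2 tau animals and lower in the other two. In EYFP animals it was 1.38 times in H, 1.55 times in I and 1.10 times in K, higher in 3 of 3.
In the fit of the EYFP animals Mapt differed by 0.39 (SE 0.16) and did not pass (edgeR adjusted p = 0.176, and 0.0838 with the animal as a block). That fit called 1218 of 19105 genes (6.38%), 3227 with the block, 84 without I, 385 without K and 0 without H (3275 at an unadjusted p under 0.05, and 2290 by DESeq2 with all animals). The IP library of animal I, which had the lowest RNA integrity number, held the largest of the 3 rises; without animal I Mapt differed by 0.29 (edgeR adjusted p = 0.611).

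Whether the change of Mapt by fraction differed between treatments was tested directly. Tau animals had a mean log2 change of 0.00 ± 0.29 (SD, n = 4), EYFP animals of 0.41 ± 0.26 (SD, n = 3), and the means differed by -0.40 (two-sided exact permutation test over 35 splits, p = 0.114). In the unpaired fit over all 14 libraries the interaction was -0.28 for Mapt (SE 0.24, edgeR adjusted p = 0.876), and -0.48 without animal K (0.782). For the construct it was 2.02 (SE 1.59, edgeR adjusted p = 0.867), and 0.38 without animal K, so most of its size rested on that animal. With the animal as a block it was -0.31 for Mapt (SE 0.20, edgeR adjusted p = 0.670) and 1.31 for the construct (SE 0.85, 0.675). The unpaired fit called 0% of 20495 genes, with 1223 at an unadjusted p under 0.05, and DESeq2 called 66.

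**Figure D3:**
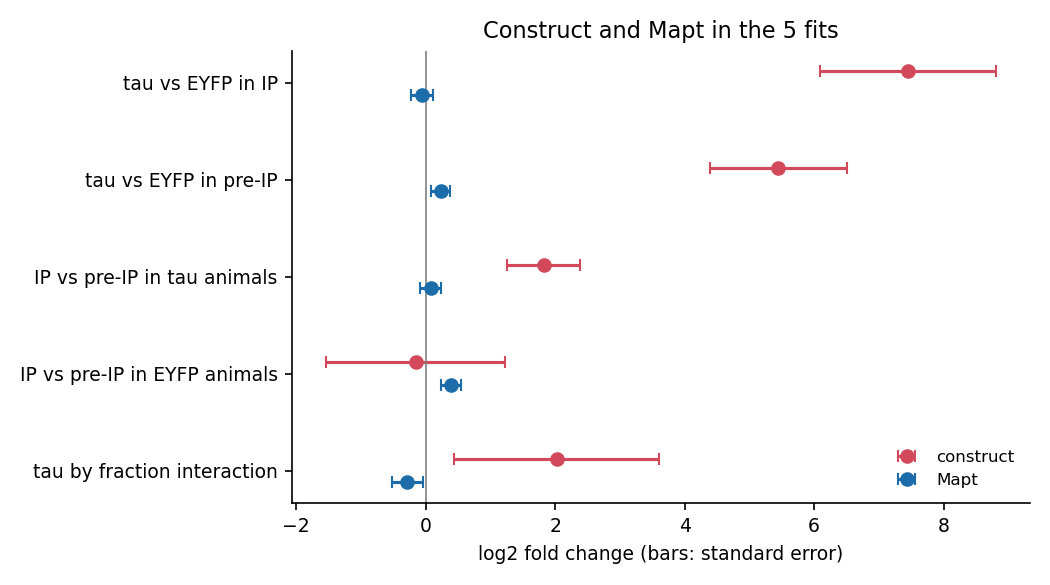
Log2 fold changes of the construct and of Mapt in the 5 edgeR fits; points are estimates and bars are standard errors. The construct lies at 7.45 and 5.44 for tau against EYFP and at 1.82 for IP against pre-IP in tau animals, and Mapt lies between -0.28 and 0.39 in all 5.

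The ratio of construct to Mapt reads within a library does not depend on how libraries are scaled. The length of the construct is not given in the sources used here, so this ratio is of reads, not of molecules, and serves only to compare libraries. In the tau pre-IP libraries it was 0.396 in animal B, 0.195 in C, 0.328 in L and 0.563 in M (mean 0.370 ± 0.153, SD, n = 4). In the tau IP libraries it was 3.31 in animal B, 0.847 in C, 0.467 in L and 0.632 in M (mean 1.31 ± 1.34, SD, n = 4). The IP of animal B was the only library in which construct reads outnumbered Mapt reads, and its counting interval of 3.24 to 3.37 lay far from that of animal C, 0.830 to 0.864.
The IP ratio exceeded the pre-IP ratio in 4 of 4 tau animals, by 8.35 times in B, 4.35 times in C, 1.42 times in L and 1.12 times in M. The mean log2 change was 1.46 ± 1.36 (SD, n = 4), and again 2 of 16 sign flips were as large in the two-sided exact permutation test. The mean was 0.93 without animal B.
In the EYFP libraries there were 0.709 construct reads per 1000 Mapt reads in animal H, 0.171 in I and 24.01 in K in pre-IP, and 0.657 in H, 1.02 in I and 19.3 in K in IP. In both fractions animal K was far above H and I.

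The construct was set against the noradrenergic genes whose ribosomes the IP selects. The list held 12 genes, among them Th and Dbh of noradrenaline synthesis, the transporters Slc6a2 and Slc18a2, and the transcription factor Phox2a. In the tau animals all 12 rose in IP, with a median log2 fold change of 3.41 against -0.03 over all genes, as Dbh (6.09, SE 0.66, edgeR adjusted p = 0.00378), Slc6a2 (5.78, SE 0.67, 0.00438), Phox2a (5.60, SE 0.62, 0.00415) and Gal (4.65, SE 0.60, 0.00478) show. In the EYFP animals 11 of 12 were above 0, with a median log2 fold change of 0.72 against -0.002 over all genes. Slc6a2 was the highest at 1.39, and 6 of 12 had an unadjusted p under 0.05, beside 22.6% of all genes. There 2 of 12 passed, Gal (0.90, SE 0.17, edgeR adjusted p = 0.0162) and Th (0.83, SE 0.16, 0.0156). Over all genes the shares called were 20.7% in tau animals and 6.38% in EYFP animals. The mean log2 change of the list was 4.44 in animal B, 3.56 in C, 3.52 in L and 1.74 in M, against 0.68 in H, 0.95 in I and 0.69 in K. The tau and EYFP animals did not overlap, and the same held in IP for Dbh itself, at 128 to 1292 CPM in tau and 29.2 to 56.1 CPM in EYFP. For tau against EYFP in IP, the list had a median log2 fold change of 2.69. All 12 had an unadjusted p under 0.05, beside 12% of all genes. In pre-IP the median was -0.05, with 5 of 12 above 0 and 0 at an unadjusted p under 0.05, beside 2.84% of all genes. Tau and EYFP thus differed in these genes in IP and not in the homogenate, and the source of this was not tested. In bulk libraries of this kind, more cells of a type, more RNA per cell and a stronger selection by the IP cannot be told apart. The RNA concentration of the IP libraries was 0.1 to 0.8 ng per microlitre in tau and 0.7 to 2.8 in EYFP animals. Every tau against EYFP comparison in IP, that of Mapt included, was thus between IPs of unlike enrichment of this list. What this added to those comparisons was not tested.

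The construct was enriched less than the mean of these genes in every tau animal, which need not hold for each gene of the list. Its log2 change minus the mean of the noradrenergic list was -1.72 in animal B, -1.12 in C, -2.88 in L and -1.66 in M, below 0 in 4 of 4 (mean -1.84 ± 0.74, SD, n = 4). In the two-sided exact permutation test 2 of 16 sign flips were as large, the fewest possible. Animals C and L had nearly the same enrichment of the list, 3.56 and 3.52, but that of the construct was 2.44 in C and 0.64 in L.
In pre-IP there were 11.7 construct reads per Dbh read in animal B, 8.16 in C, 6.80 in L and 12.1 in M. In IP there were 0.650 in B, 0.403 in C, 0.196 in L and 1.51 in M. The ratio thus fell in every animal, and M, with the weakest enrichment of the noradrenergic list, had the highest ratio in both fractions.
Other cell markers moved in the same libraries. The summed CPM of 10 oligodendrocyte genes was 10425 to 13636 in tau pre-IP and 3894 to 10873 in tau IP, lowest in animal B. That of 10 astrocyte genes was 3868 to 5314 and 2523 to 5104, and that of 10 microglial genes 319 to 437 and 215 to 378. No sum of these lists was near 0 in any library, and their part in the differences was not tested.

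**Figure D4:**
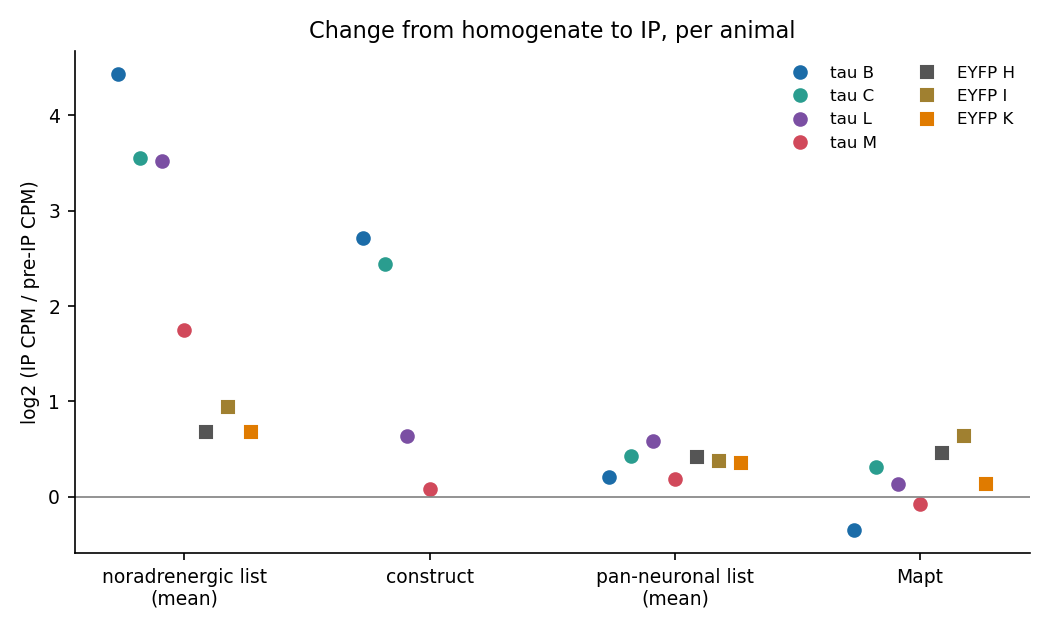
Log2 ratio of IP to pre-IP CPM per animal for the mean of the 12 noradrenergic genes, the construct (tau animals only), the mean of the 12 pan-neuronal genes and Mapt; circles are tau animals and squares EYFP animals. The noradrenergic list lies at 1.74 to 4.44 in tau animals, the construct at 0.09 to 2.71 and Mapt at -0.35 to 0.32.

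**Figure D5:**
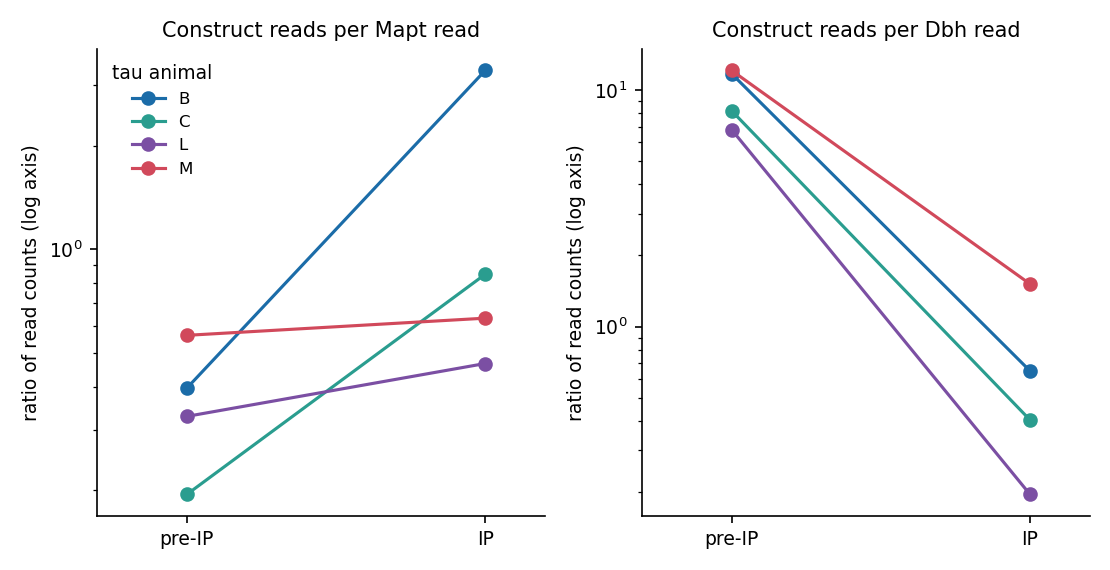
Construct reads per Mapt read (left) and per Dbh read (right) in the pre-IP and IP library of each tau animal, on log axes. From pre-IP to IP the ratio to Mapt rises in all 4 animals, most in animal B (0.396 to 3.31), and the ratio to Dbh falls in all 4.

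Mapt was also set against 12 genes found in neurons in general, such as the RNA-binding Elavl proteins, synaptic Snap25 and Syt1, and the neurofilaments Nefl and Nefm. In the pre-IP libraries, log2 CPM of Mapt minus the mean of this list was -0.14 in animal B, -0.07 in C, -0.12 in L and -0.04 in M, against -0.23 in H, -0.48 in I and -0.15 in K. The groups did not overlap, although K and B differed by less than the tau animals did among themselves. The difference of the means was 0.19 (two-sided exact permutation test over 35 splits, p = 0.0286, the smallest possible, and after Benjamini-Hochberg adjustment 0.15 over the 6 exact tests other than the 2 on the construct level and 0.0762 over all 8). It was 0.095 without animal I.
In IP the same quantity was -0.70 in animal B, -0.18 in C, -0.57 in L and -0.31 in M, against -0.18 in H, -0.22 in I and -0.37 in K. Here the groups overlapped, and the difference was -0.18 (two-sided exact permutation test over 35 splits, p = 0.343). The differences of the 2 fractions thus had opposite signs. After adjustment over the 6, the exact tests of the fraction changes, and of their difference between treatments, were at 0.15.
From pre-IP to IP in tau animals, 4 of the 12 pan-neuronal genes rose and 1 fell, with Uchl1 at 1.17 (SE 0.27, edgeR adjusted p = 0.0147) and Elavl4 at 1.06 (SE 0.19, 0.00705). In EYFP animals 3 rose and 0 fell, among them Nefm (0.99, SE 0.26, edgeR adjusted p = 0.0457). Of all genes 20.7% passed in the tau animals and 6.38% in the EYFP animals.

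Genes that act on tau protein were examined as lists, in tau against EYFP and in IP against pre-IP. In tau against EYFP, 0 members of any list passed edgeR's test in either fraction. In IP, an unadjusted p under 0.05 was reached by 0 of 16 tau kinases, 1 of 9 phosphatase subunits and isomerases, 3 of 13 folding and turnover genes, 1 of 14 splicing factors, 3 of 16 other microtubule-associated proteins and 3 of 10 tau partners, beside 12% of all genes. The median log2 fold changes of these lists in IP were -0.21, 0.10, -0.06, -0.09, -0.11 and -0.21 in the same order, against -0.08 over all genes. Of the 16 kinases only Cdk5 had a value above 0 (0.16, SE 0.14, edgeR adjusted p = 0.663), and Mark3 had the lowest (-0.46, SE 0.37, 0.652). Among all genes of that fit 43.4% were above 0.
In pre-IP the medians of the 6 lists ran from -0.07 (kinases) to 0.13 (folding and turnover), against 0.00 over all genes. Of the kinases 2 of 16 had an unadjusted p under 0.05, of the phosphatase list 1 of 9 and of the splicing factors 1 of 14, and 0 in the other lists, beside 2.84% of all genes.

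From pre-IP to IP, members of these lists moved in both directions, and since 20.7% of all genes passed in tau animals and 6.38% in EYFP animals, the counts are read against those shares. Of the 16 kinases 2 rose and 3 fell in tau animals. Ttbk2, tau tubulin kinase, rose in tau animals (0.60, SE 0.17, edgeR adjusted p = 0.0307) and in EYFP animals (0.93, SE 0.16, 0.0115). Camk2a (-0.82, SE 0.23, edgeR adjusted p = 0.0323), Csnk1d (-0.66, SE 0.15, 0.0144) and Mark2, which phosphorylates the repeat region (-0.57, SE 0.15, 0.0274), fell in tau animals.
Of the 9 genes of the phosphatase list 1 rose, Ppp2cb, a catalytic subunit of protein phosphatase 2A (0.69, SE 0.15, edgeR adjusted p = 0.0115), and 0 passed in EYFP animals, where 1 had an unadjusted p under 0.05. Among the 13 genes of folding and turnover, 1 rose and 1 fell in tau animals. The chaperone gene Hsp90aa1 rose by 2.06 (SE 0.25, edgeR adjusted p = 0.00450) in tau animals and by 2.30 (SE 0.23, 0.00601) in EYFP animals. Hdac6, a tubulin deacetylase, fell in tau animals (-0.89, SE 0.16, edgeR adjusted p = 0.00700).
Of 14 splicing factors, which include regulators of the alternative repeat exon, 1 rose in tau animals and 2 in EYFP animals. Tra2a was called in both (0.62, SE 0.19, edgeR adjusted p = 0.0427 in tau, and 0.81, SE 0.18, 0.0252 in EYFP).

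Of 16 other microtubule-associated proteins, 3 rose and 3 fell from pre-IP to IP in tau animals, and 2 rose and 1 fell in EYFP animals. Map9 rose in both (1.33, SE 0.25, edgeR adjusted p = 0.00818 in tau, and 1.30, SE 0.23, 0.0127 in EYFP). Stmn1, a microtubule destabiliser, rose in tau animals (0.65, SE 0.21, edgeR adjusted p = 0.0488), and Map6, a stabiliser, fell (-0.61, SE 0.15, 0.0177). Of 10 partners, among them proteins that bind, take up or share aggregates with tau, 2 rose and 3 fell in tau animals. Lrp1, a receptor for tau uptake, fell (-1.03, SE 0.31, edgeR adjusted p = 0.0393). Picalm, an endocytic adaptor, rose in both treatments (0.56, SE 0.18, edgeR adjusted p = 0.0495 in tau, and 0.78, SE 0.16, 0.0221 in EYFP). In tau animals its call was lost with the animal as a block (edgeR adjusted p = 0.0501) and with no filter on low counts (0.0610). In the interaction fit 0 members of these lists passed. Every gene called in the tau animals lost its call without animal C or without L, as did all genes of that fit, and every gene called in the EYFP animals lost it without H.

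Mapt lies on chromosome 11 at 104231390 to 104332090 (GRCm38, plus strand), with 7531 bases of merged exons. The antisense gene Gm11659 lies within it and had 0 to 4 counts per library, and the small RNA genes Gm22743 and Gm47310 had 0, so they could add few reads to Mapt even if strand was not used in counting. Per kilobase of exon, Mapt had a mean of 42.0 CPM in tau pre-IP and 42.8 CPM in tau IP, and 36.0 and 47.6 CPM in EYFP. Of its neighbours, Nsf, a membrane fusion ATPase gene, was higher (88.5 CPM per kilobase in tau pre-IP). Kansl1, a gene of the other strand whose 3′ end lies 1139 bases beyond Mapt, was lower (7.21).
The 3 nearest genes on each side with a mean of at least 1 CPM were tested in every fit. In tau against EYFP 0 of the 6 passed in either fraction. In IP, where Mapt was at -0.05, Nsf (-0.46, SE 0.14, edgeR adjusted p = 0.318) and Myl4 (1.16, SE 0.44, 0.361) had an unadjusted p under 0.05, beside 12% of all genes. In pre-IP 0 did, beside 2.84% of all genes. From pre-IP to IP in tau animals Crhr1, a receptor for corticotropin-releasing hormone (-1.13, SE 0.29, edgeR adjusted p = 0.0214), and Kansl1 (-0.53, SE 0.16, 0.0409) fell. Cdc27 (0.85, SE 0.22, edgeR adjusted p = 0.0219) and Myl4 (1.40, SE 0.39, 0.0295) rose. With no filter on low counts Kansl1 did not pass (edgeR adjusted p = 0.0533). In EYFP animals Cdc27 rose as well (0.81, SE 0.19, edgeR adjusted p = 0.0325), Myl4 was at 0.20 (SE 0.25, 0.704), Crhr1 at -0.44 (SE 0.18, 0.190) and Kansl1 at -0.46 (SE 0.16, 0.110). Over all genes the shares called from pre-IP to IP were 20.7% in tau animals and 6.38% in EYFP animals. Cdc27 and Myl4 lie next to each other at 218573 bases or less from Mapt, on opposite strands. Mapt itself was at 0.08 in tau animals.

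Genes with a pattern like that of the construct over the 8 tau libraries were ranked by Pearson's r of log2 CPM among 9543 genes with a mean of at least 10 CPM, as a description, since these points share libraries and the IP of animal B carries much of the range. The 5 highest were Armc6 (r = 0.988), Tango2 (0.982), Dok5 (0.972), Ciapin1 (0.970), a factor of iron-sulfur cluster assembly, and Saraf (0.965), a regulator of calcium entry. Armc6 itself ran only from 52.1 to 73.6 CPM. The noradrenergic genes had lower values: Dbh had r = 0.778 and was 782nd, Th had 0.776 and was 786th, and Gch1, which makes the cofactor of tyrosine hydroxylase, was the highest of the list at 0.849 and 250th. For Mapt over all 14 libraries, among 9699 genes, the highest were Oat (r = 0.910), an ornithine aminotransferase, Setd7 (0.819), Hspa2 (0.817), Jak1 (0.813) and Glul (0.801), the glutamine synthetase of astrocytes. Of the pan-neuronal genes Elavl3 (0.783) and Nefm (0.710) were nearest, whereas Rbfox3 was at 0.0175 and Stmn2 at 0.0415.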

How the data were processed

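The deposited values are raw read counts for each gene in each library, whole numbers to which the authors applied no scaling. Trim Galore, STAR, featureCounts and FastQC and the builds GRCm38 and mm10 are listed in the submitters' processing notes; versions, the use of strand and of reads matching more than 1 place are not given in the sources used here. Per the labels, polyadenylated RNA was made into libraries with the SMART-Seq and Nextera XT kits. A deposited sheet of the samples lists an RNA integrity score, the RNA concentration, raw reads and, per the file headers, the percent of bases of high quality and of GC. Its construct counts equal those of the count table in all 14 libraries, which checks the reading of a header with 2 stray empty cells. Total counts were 76.4 to 85.3 percent of the raw reads. Names and exon lengths came from the deposited gene table, with names for the 3710 entries it lacks looked up in GENCODE M21.

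CPM are counts per 1000000 counts of the library. Tests across genes used edgeR 4.0.16 (quasi-likelihood, filterByExpr, TMM, Benjamini-Hochberg, threshold 0.05) in R 4.3.3, each comparison on its own libraries. Standard errors are the log2 fold change over the square root of F. Per-animal log2 values used CPM with a prior count of 2 for the lists and members in exact permutation tests (scipy 1.17.1). The fits were tested on simulated counts with 200 genes changed by 2 on the log2 scale. For tau against EYFP, edgeR recovered 151 of these among 18799 genes in IP and 187 among 18875 genes in pre-IP. For IP against pre-IP it recovered 148 in tau and 168 in EYFP animals, and for the interaction 128. The simulated counts held no effects of animal or library-number range, so these shares need not hold for the real libraries. Other settings were DESeq2 1.42.0, its size factors, no filter, the library-number range as covariate, each animal left out, and the animal as a block. The letters pair the fractions of an animal, from the titles. Deviations from group means correlated at 0.147 to 0.359 between the fractions in all 7 animals. Libraries of different animals were not compared in this way, so these values do not test the pairing.

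The members and the 11 gene lists were chosen with earlier results of these data known. The members were named in every comparison. Of the lists, members past the threshold were named, at most 4 per list and comparison with the largest change first, or else those with the lowest and highest change, and not all of these are printed. Neighbours were the 3 nearest genes on each side with a mean of at least 1 CPM, and genes of like pattern the 5 with the highest Pearson r. Some list members are not reported here.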

Additional observations from a re-analysis of the deposited data

Results flagged for a closer look

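The ratio of construct to Mapt reads in the IP library of animal B was 3.31, against 0.847 in the nearest of the other 3 tau IP libraries. This gap is large for a group of 4 on the scale of the ratio itself, and the log2 of these ratios was not examined for it. This was 1 of 12 sets of 4 values of tau animals examined. If values are normally distributed, chance alone marks about 1 in 20 such sets. The RNA concentration of this library was 0.1 ng per microlitre in the sample sheet, the lowest of the 7 IP libraries, which ran up to 2.8. Without animal B the mean log2 change of the ratio from pre-IP to IP was 0.93.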

How the results depend on the processing

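With each animal left out, the number of genes called ran from 0 to 128 for tau against EYFP in IP, from 0 to 1 in pre-IP, from 0 to 3866 for IP against pre-IP in tau animals, from 0 to 385 in EYFP animals and from 0 to 56 for the interaction. The construct's log2 fold change then ran from 6.65 to 10.45 in IP, from 4.87 to 10.09 in pre-IP and from 1.03 to 2.39 for IP against pre-IP in tau animals. That of Mapt ran from -0.21 to 0.015 for tau against EYFP in IP, with its sign turned without B, and from -0.048 to 0.15 for IP against pre-IP in tau animals, with its sign turned without C. For Mapt it ran from 0.14 to 0.39 for tau against EYFP in pre-IP. In EYFP animals the range was 0.29 to 0.57, and for the interaction -0.48 to -0.21. Mapt less the pan-neuronal list in pre-IP ran from 0.095 to 0.26, where fewer animals cannot reach 0.05, and was 0.19 with the median over the list (exact permutation p = 0.114).

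With DESeq2, 347 genes were called for tau against EYFP in IP (construct 7.50), 2290 for IP against pre-IP in EYFP animals and 66 for the interaction. With no filter on low counts, 113 were called in IP (construct 7.43), 44 in pre-IP (construct 5.45), 2164 in EYFP animals and 67 for the interaction. In the exact permutation test added after seeing the data, the construct's mean log2 CPM differed by 8.37 in IP and 7.70 in pre-IP. With the animal as a replicate block, the paired fit took the construct in tau animals from 1.82 to 1.53 and the calls in EYFP animals from 1218 to 3227, and changed no other call on the construct or Mapt; among the list genes it ended that of Picalm in tau animals (0.57). The cause of these changes was not tested. Of the other values, 150 that answer a comparison and 280 of single list genes kept direction and side of the threshold, and 134 of single list genes kept direction but no longer passed. Counts of 2 to 18 limit the construct level of animals H and I.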
